A study of Oryza sativa with 27 samples.

Results

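In rice (Oryza sativa), 200 of 29331 tested probe sets formed the group described here, whose level exceeded that of the unpollinated ovary at 1, 2, 3 and 4 days after pollination (DAP) in both parts into which it had been cut. The 57258 rice probe sets of an Affymetrix array were reduced to those with a mean over all arrays above 0.264, and the group mean of log2(value + 0.13) in the unpollinated part was subtracted from that of each day in the same part. The smallest of the resulting 8 differences was the score of a probe set, and the 200 highest scores made up the group. Since the members were chosen by these differences, the differences are given as a description and were not tested. Of the 200 members, 163 had 1 gene in the annotation and 37 had none, and the 163 stood for 155 genes, of which 7 had several member probe sets and 32 had an informative name. The plants were grown in paddy fields. Embryo sacs were cut into a smaller bottom part, described as holding the embryo, and a larger top part, described as mainly endosperm. The tissue content of the parts was not tested. Unpollinated embryo and ovary material, cut in the same way, was the reference of each part. The 27 arrays fell into 10 groups: 3 arrays for each of the 5 stages of the bottom part (unpollinated and 1, 2, 3 and 4 DAP), 3 each for the unpollinated and 4 DAP top part, and 2 each for the top part at 1, 2 and 3 DAP. The labels name biological replicates but no cultivar, plant or panicle, so the p-values measure the spread between these samples. A value of 1 is the 75th percentile of its array, so a change of total RNA per cell was not measured. In these bulk samples fewer cells of a type and less RNA per cell cannot be told apart.

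In grasses, pollination and double fertilisation start the embryo and the endosperm, while the nucellus, the maternal tissue around the embryo sac, is broken down by programmed cell death and the pericarp expands. Proteases and the MADS factors of the seed coat and nucellus take part in that breakdown. Auxin and gibberellin drive the early growth of the fruit, and expansins and cell wall enzymes let its cells enlarge. Proteins of the pathogenesis-related class PR-10, to which PBZ1 belongs, are best known from defence and from dying cells.

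Replicate arrays correlated over all tested probe sets with r between 0.863 and 0.978 (median 0.955). Replicate 3 of the bottom part at 2, 3 and 4 DAP was taken as standing apart, without a cutoff. The members lay there below their group mean by a median of 0.23, 0.34 and 0.23 on the log2 scale (medians -0.23, -0.34 and -0.23). The root mean square deviation of all tested probe sets was 0.37, 0.52 and 0.48 on these arrays. Bottom replicate 2 of 2 DAP (0.36) and replicate 1 of 3 DAP (0.38) were close to the first of them. On that replicate 1 of 3 DAP the members lay above their group mean by a median of 0.36. The 18S rRNA control ran from 0.127 to 33.6 over the arrays and was high on both top arrays of 3 DAP (23.9 and 25.4). Of the fixed markers of other cell types, those of endosperm (4 genes, 3 of them under 0.264 on both top arrays of 2 DAP) summed to 0.917 to 1.74 on all arrays up to 2 DAP. In the top part they summed to 3.51 to 10.8 at 3 DAP and 26.9 to 65.3 at 4 DAP. The bottom part had them too, at 2.05 to 8.28 at 3 DAP and 13.5 to 20.7 at 4 DAP. Those of green pericarp (3 genes) summed to 31.0 to 54.8 in the unpollinated top part, 9.32 to 11.9 at 1 DAP, 52.3 to 61.4 at 2 DAP and 137 to 147 at 4 DAP, and in the bottom part to 16.8 to 20.9 before pollination, 7.41 to 19.2 at 1 DAP and 71.2 to 105 at 4 DAP. The green pericarp sums of the top part were thus lowest at 1 DAP, and they were 141 to 152 at 3 DAP. In the bottom part they were 37.8 to 42.2 at 2 DAP and 19.6 to 91.3 at 3 DAP. The markers of nucellus (4 genes, of which OsMADS29 and AP25 are members) summed in the top part to 24.7 to 29.3 before pollination, 43.0 to 50.2 at 1 DAP and 36.7 to 47.6 at 4 DAP. These 2 members were chosen by the rule for their rise, so nothing is read from the rise of this sum. Before pollination the 2 genes listed as embryo markers summed to 20.03 to 27.2 in the bottom part, against 21.3 to 24.8 at 1 DAP and 5.79 to 10.5 at 4 DAP. The 2 markers listed for pollen summed to 8.84 to 11.9, 0.857 to 1.42 and 0.385 to 0.682 on the same arrays. Since the embryo list was about as high before pollination as at 1 DAP, its sum was not read as embryo content. The part of these shifts in the members' levels was not tested.

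The median member went from a mean of 0.775 in the unpollinated parts to 5.10 in the pollinated ones. In the bottom part the median log2 difference from the unpollinated group was 1.94, 2.14, 1.99 and 2.14 at 1, 2, 3 and 4 DAP, and in the top part 2.30, 2.36, 2.23 and 2.38. Over all tested probe sets these medians lay between -0.06 and 0.01. All arrays after pollination lay above all unpollinated arrays in 160 members in the bottom part, 190 in the top part and 155 in both, where 5.69%, 11.6% and 3.31% of all tested probe sets did so, and all 8 differences were called in 146 members (1.55% of all tested probe sets). The rule used those differences, so nothing is read from these counts. Of the 40 members that overlapped in the bottom part, 26 had their lowest value after pollination on one of the 3 arrays that stood apart, and without those arrays 185 members did not overlap there.

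**Figure D1:**
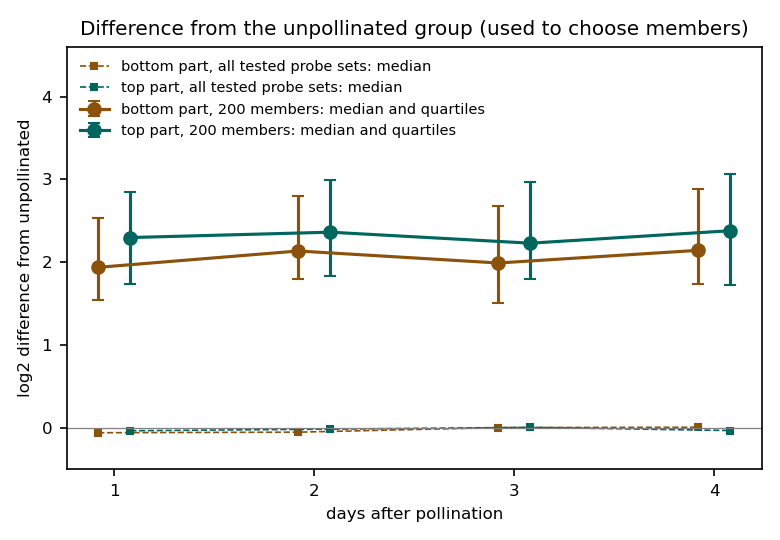
Median log2 difference from the unpollinated group of the same part on each day (x axis, days after pollination), with quartiles as bars, for the 200 members in the bottom and top part, beside the medians of all tested probe sets. The members' medians lie between 1.94 and 2.38 on every day, and those of all probe sets at about 0, as the choice of members fixes.

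The members did not share a single course. The day with the highest mean was 4 DAP for 82 members in the bottom part and 64 in the top part, and 1 DAP for 46 and 68. In 113 members the highest day was the same in both parts, 4 DAP in 49 of them and 1 DAP in 31. The 4 daily means stayed within 1 log2 unit of each other in both parts in 89 members. Flat members included OsALN (LOC4337428), an allantoinase of purine breakdown, and OsNrx1-1 (LOC4333075), a nucleoredoxin, whose daily means spanned 0.42 and 0.43 in the part where they varied more.

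PBZ1 (LOC4352491), a PR-10 protein of rice first known as induced by the defence activator probenazole, had the highest score, 6.21 (74.2-fold at the least). Bottom values were 0.282, 0.232 and 0.278 before pollination, 92.5, 89.9 and 91.7 at 1 DAP and 77.97, 89.3 and 75.5 at 2 DAP. At 3 DAP the bottom values were 59.3, 57.02 and 75.3, and at 4 DAP 95.3, 66.6 and 58.6. Top values were 0.115, 0.08001 and 0.187 before pollination, 51.8 and 48.3 at 1 DAP and 43.2 and 19.8 at 2 DAP. Then came 8.45 and 41.1 at 3 DAP and 15.9, 41.2 and 51.3 at 4 DAP. In both parts it thus went from under 1, the 75th percentile of an array, to 48.3 or more at 1 DAP. Every bottom array after pollination was above every top array after pollination. Lower by a log2 difference of -1.75 ± 0.48, adjusted p = 0.0361 in the top part at 3 DAP (limma, log2 ± SE), it lost that call in 8 of its 13 alternatives (adjusted p up to 0.667), among them without bottom 3 DAP replicate 2 or 3 or top 3 DAP replicate 1. The other days gave top minus bottom differences of -0.87 ± 0.48, adjusted p = 0.433, -1.46 ± 0.48, adjusted p = 0.171 and -1.15 ± 0.43, adjusted p = 0.179 at 1, 2 and 4 DAP (limma), none of them called.

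LOC4352488 and LOC4352487, with no annotated name, lie 3 and 5 genes before PBZ1 in the gene order of the RefSeq assembly ASM3414082v1, and both were members. For LOC4352487, bottom values were 0.287, 0.273 and 0.344 before pollination, 47.5, 39.2 and 56.7 at 1 DAP and 26.2, 22.8 and 35.2 at 2 DAP. Values of 14.8, 18.4 and 24.8 followed at 3 DAP, and of 25.4, 13.7 and 16.4 at 4 DAP, and top values were 0.248, 0.158 and 0.303 before pollination, 16.02 and 15.04 at 1 DAP and 4.91 and 3.19 at 2 DAP. The later top arrays read 0.751 and 3.13 at 3 DAP and 0.9002, 4.23 and 6.804 at 4 DAP. Both parts were highest at 1 DAP, and on no day did a top array reach the bottom values. In the top part LOC4352487 was lower than in the bottom part by a log2 difference of -2.76 ± 0.55, adjusted p = 0.00967 at 2 DAP, -3.49 ± 0.55, adjusted p = 0.00165 at 3 DAP and -2.52 ± 0.50, adjusted p = 0.00732 at 4 DAP (limma). LOC4352488 stood at 15.5, 15.96 and 25.0003 in the bottom and 8.65 and 9.92 in the top part at 1 DAP, and at 9.97, 4.42 and 6.204 and 0.939, 1.895 and 2.69 at 4 DAP. It was lower in the top part by a log2 difference of -1.96 ± 0.39, adjusted p = 0.00666 at 3 DAP and -1.86 ± 0.35, adjusted p = 0.00510 at 4 DAP (limma), and its difference at 2 DAP, -1.56 ± 0.39, adjusted p = 0.0478, was lost in 9 alternatives (adjusted p up to 0.329), among them without any 1 array of either group. Between 1 and 4 DAP both fell in the top part, by a log2 difference of -2.36 ± 0.39, adjusted p = 0.000199 for LOC4352488 and -2.31 ± 0.55, adjusted p = 0.00632 for LOC4352487 (limma). LOC4352488 also fell in the bottom part, by -1.48, adjusted p = 0.00773 (limma), lost without bottom 1 DAP replicate 3 or bottom 4 DAP replicate 2. The fall was not shown to differ between the parts for LOC4352488 (-0.88 ± 0.52, adjusted p = 0.854) or LOC4352487 (-0.92 ± 0.74, adjusted p = 0.985, limma). Calls of LOC4352487 were lost without top 2 DAP replicate 1 or 2 at 2 DAP, without top 3 DAP replicate 1 at 3 DAP, and without top 1 DAP replicate 1 for the fall to 4 DAP (adjusted p up to 0.231, 0.207 and 0.0677 over the alternatives), and that of LOC4352488 at 3 DAP without top 3 DAP replicate 1 (0.35). With only the arrays compared, the 3 DAP and 4 DAP calls of both were lost.

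**Figure D2:**
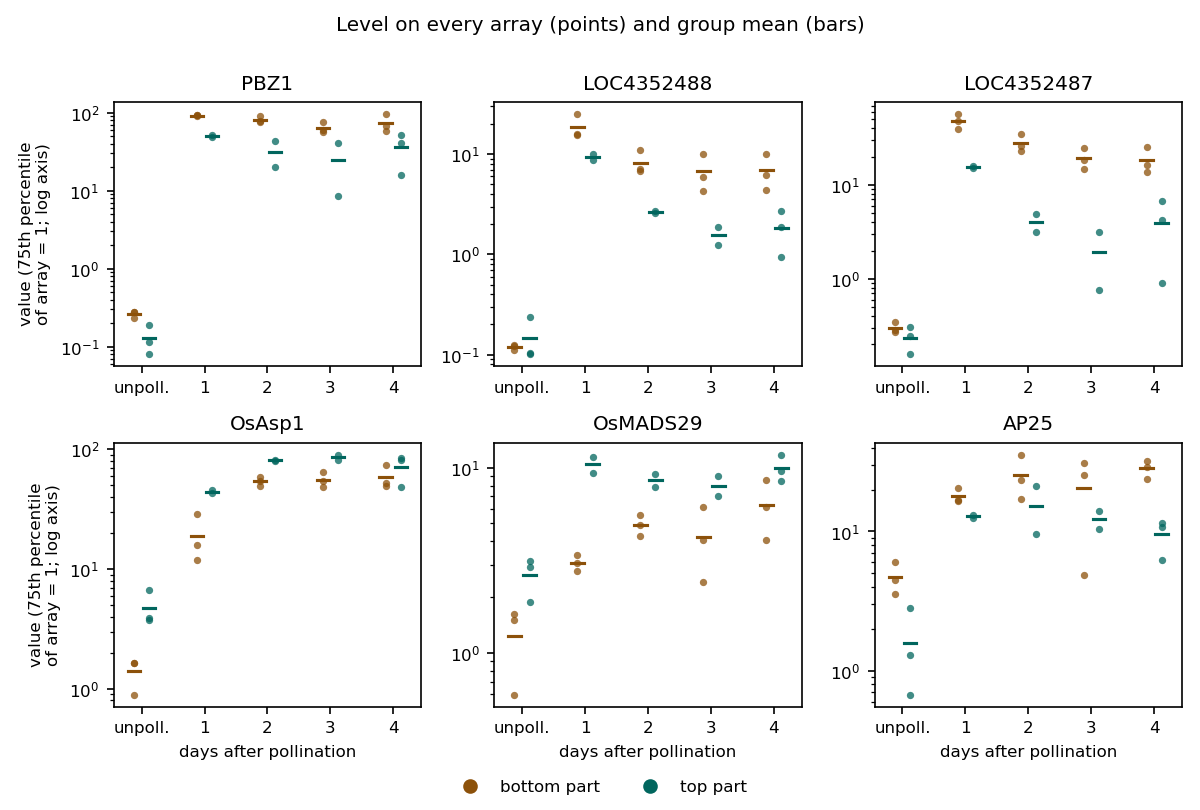
Level on every array (points) and group mean (bars) of PBZ1, its 2 neighbouring members, and OsAsp1, OsMADS29 and AP25 by stage (x axis) in the bottom and top part, on a log axis where 1 is the array's 75th percentile. PBZ1 and its neighbours are higher in the bottom part after pollination, while OsAsp1 and OsMADS29 are higher on every top array than on the bottom arrays of the same stage up to 3 DAP.

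On the list of cell death proteases and their inhibitors, 3 of 6 genes were members, beside 155 of 15275 tested genes. The list was written with earlier results of these data known, so nothing is read from this count. A role of these genes in cell death was not tested. OsAsp1 (LOC4349962), an aspartic protease, had bottom values of 1.65, 1.64 and 0.8902 before pollination, 29.1, 15.8 and 11.96 at 1 DAP and 54.5, 59.1 and 49.1 at 2 DAP. By 3 DAP they were 65.2, 54.02 and 48.5, and by 4 DAP 73.8, 52.8 and 49.6. Top arrays read 6.63, 3.72 and 3.93 before pollination, 43.4 and 45.5 at 1 DAP and 81.4 and 80.5 at 2 DAP. At 3 DAP the top values were 90.3 and 81.9, and at 4 DAP 81.5, 84.1 and 48.6. Every top array lay above every bottom array of the same stage up to 3 DAP, and the parts overlapped at 4 DAP. OsAsp1 was higher in the top part by log2 1.68 ± 0.30, adjusted p = 0.000479 before pollination and 1.32 ± 0.33, adjusted p = 0.0233 at 1 DAP (limma), and in the bottom part it rose by 1.70 ± 0.30, adjusted p = 0.000519 between 1 and 4 DAP. The first and the last of these calls were kept under every alternative run, and the one at 1 DAP was lost in 5 (adjusted p up to 0.194), without bottom 1 DAP replicate 2 or 3 or either top replicate. AP25 (LOC4331874), an aspartic protease known from cell death of the tapetum, ranged from 4.86 to 35.5 after pollination, against 3.59 to 6.07 before in the bottom part and from 6.26 to 21.1 after pollination, against 0.674 to 2.82 before in the top part. Its bottom arrays overlapped through replicate 3 of 3 DAP (4.86). Before pollination AP25 was lower in the top part, by a log2 difference of -1.66 ± 0.52, adjusted p = 0.0366 (limma). That call was lost in 7 alternatives (adjusted p up to 0.146), among them without replicate 1 or 3 of either unpollinated group. OC-I (LOC4327535), a cystatin that inhibits cysteine proteases, ranged from 7.76 to 33.7 after pollination, against 3.597 to 5.52 before in the bottom part and from 4.93 to 13.7 after pollination, against 2.69 to 3.74 before in the top part, with no overlap in either.

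OsMADS29 (LOC4328443), a MADS transcription factor needed for nucellus degradation in rice, had bottom values of 1.62, 1.504 and 0.595 before pollination, 3.38, 3.06 and 2.78 at 1 DAP and 4.93, 5.53 and 4.28 at 2 DAP. Then came 6.14, 4.06 and 2.41 at 3 DAP and 8.59, 6.17 and 4.05 at 4 DAP. The top part gave 3.12, 2.91 and 1.89 before pollination, 11.5 and 9.33 at 1 DAP and 9.297 and 7.88 at 2 DAP. Values of 9.01 and 6.999 followed at 3 DAP, and of 9.58, 11.7 and 8.48 at 4 DAP. Every pollinated array was above the unpollinated ones of its part, and the top part was higher on each array up to 3 DAP. The top minus bottom difference was 1.09 ± 0.33, adjusted p = 0.0285 before pollination and 1.71 ± 0.37, adjusted p = 0.00734 at 1 DAP (limma). The first call was lost in 4 alternatives, among them without bottom unpollinated replicate 3 or top unpollinated replicate 1 or 2 (adjusted p up to 0.212), and the second without top 1 DAP replicate 1 (0.154). OsNAC3 (LOC4342753), a NAC transcription factor, spread widely between replicates, from 3.57 to 27.3 after pollination, against 1.19 to 2.302 before in the bottom part and from 3.84 to 19.1 after pollination, against 0.479 to 2.05 before in the top part. HSFA4D (LOC4339409), a heat stress factor whose loss gives lesions on rice leaves, ranged from 1.46 to 14.7 after pollination, against 0.803 to 1.08 before in the bottom part, and from 1.16 to 6.53 after pollination, against 0.427 to 0.571 before in the top part.

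Genes that make a hormone and genes that remove it were both among the members. OsTAR2 (LOC4325198), a tryptophan aminotransferase of auxin synthesis, ranged from 0.704 to 6.83 after pollination, against 0.388 to 0.445 before in the bottom part and from 1.23 to 2.69984 after pollination, against 0.182 to 0.247 before in the top part. DAO (LOC4336150), the dioxygenase that oxidises auxin, had bottom values of 1.16, 0.591 and 2.53 before pollination, 17.3, 8.05 and 10.8 at 1 DAP and 24.2, 12.04 and 20.2 at 2 DAP. The later bottom arrays read 23.6, 15.5 and 28.5 at 3 DAP and 11.7, 12.9 and 23.7 at 4 DAP. On the top arrays it stood at 5.46, 0.245 and 0.347 before pollination, 5.78 and 8.66 at 1 DAP and 8.36 and 19.98 at 2 DAP. By 3 DAP they were 22.2 and 8.21, and by 4 DAP 19.2, 14.2 and 10.9. One unpollinated top array (5.46) stood far above the other two and just under the lowest value after pollination. IAA10 (LOC4331149), an Aux/IAA repressor of auxin response, ranged from 3.601 to 9.99 after pollination, against 1.02 to 2.397 before in the bottom part and from 5.54 to 10.9 after pollination, against 0.629 to 2.91 before in the top part.

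For gibberellin, GA20OX3 (gene 4342505), an oxidase of late gibberellin synthesis, had bottom values of 0.705, 0.59 and 1.31 before pollination, 3.19, 3.15 and 3.62 at 1 DAP and 4.32, 4.13 and 5.74 at 2 DAP. At 3 DAP the bottom values were 4.93, 5.02 and 10.3, and at 4 DAP 4.58, 5.54 and 8.196. Its top values were 1.11, 0.637 and 0.466 before pollination, 3.56 and 4.32 at 1 DAP and 3.598 and 5.81 at 2 DAP. Then came 5.68 and 4.99 at 3 DAP and 4.396, 4.37 and 4.64 at 4 DAP. The daily means were between 3.62 and 6.804 times the unpollinated ones on the log2(value + 0.13) scale, with no overlap in either part. EUI1 (LOC4339131), a cytochrome P450 that inactivates gibberellins, had bottom values of 0.238, 0.404 and 0.356 before pollination, 2.12, 1.77 and 1.42 at 1 DAP and 1.27, 1.01 and 1.43 at 2 DAP. Values of 1.42, 1.63 and 1.37 followed at 3 DAP, and of 1.699, 1.62 and 1.49 at 4 DAP. Top arrays read 0.192, 0.165 and 0.321 before pollination, 0.846 and 1.06 at 1 DAP and 0.8502 and 0.776 at 2 DAP. The later top arrays read 1.38 and 1.29 at 3 DAP and 1.79, 1.76 and 1.57 at 4 DAP. After pollination its top level was lowest at 2 DAP and highest at 4 DAP. EUI1 was lower in the top than in the bottom part at 1 DAP by a log2 difference of -0.80 ± 0.20, adjusted p = 0.0221, and rose in the top part by 0.77 ± 0.20, adjusted p = 0.0112 between 1 and 4 DAP (limma). The rise was lost without top 1 DAP replicate 1 (adjusted p up to 0.181), and the difference at 1 DAP in 5 alternatives (up to 0.392), without bottom replicate 1 or 2 or either top replicate.

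**Figure D3:**
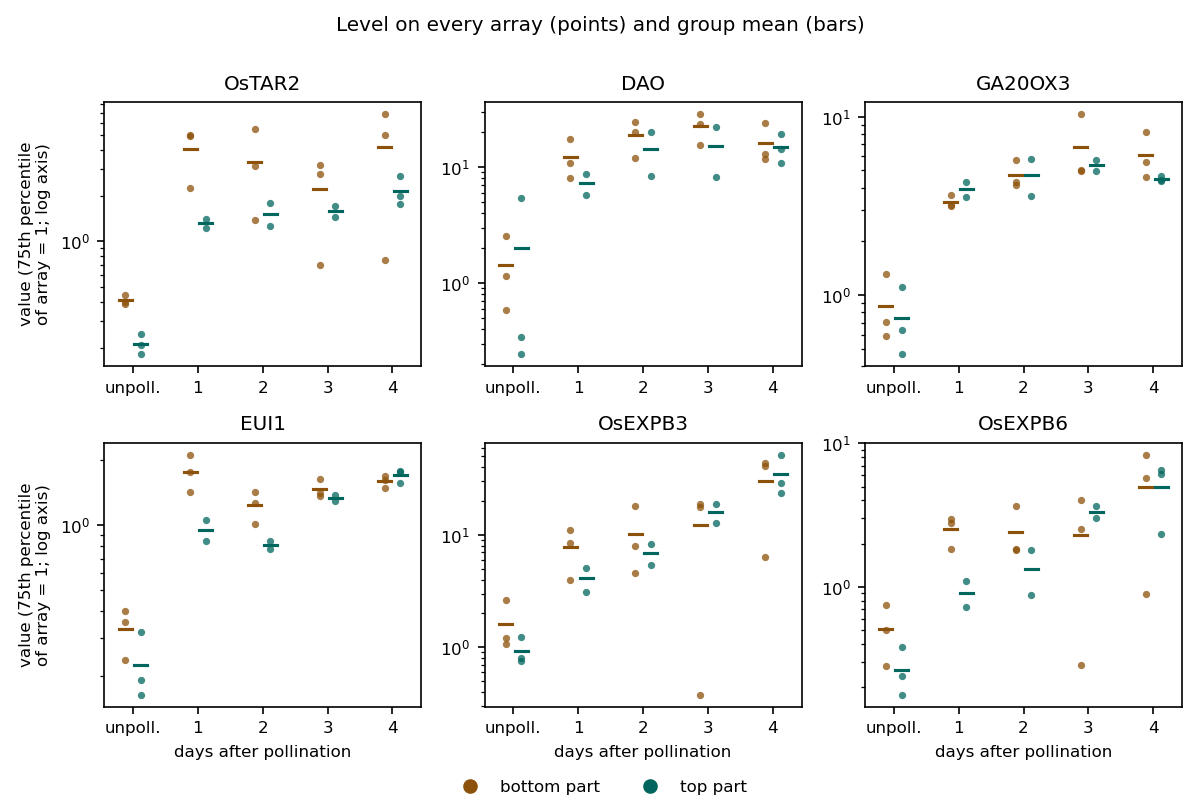
Level on every array (points) and group mean (bars) by stage (x axis) of the hormone genes OsTAR2, DAO, GA20OX3 and EUI1 and the neighbouring expansins OsEXPB3 and OsEXPB6 in the bottom and top part, on a log axis where 1 is the array's 75th percentile. The expansins have 1 low bottom array at 3 DAP (0.378 and 0.284), which lies among or under the unpollinated arrays.

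Of 21 listed genes for expansins and wall loosening, 4 were members: OsEXPB3 (LOC4349349), OsEXPB6 (LOC4349347), OsEXPB7 (LOC4331300) and OsEXPA6 (LOC4332763), proteins that loosen cell walls during growth. Nothing is read from this count either, beside 155 of 15275 tested genes, since this list too was written with earlier results known. OsEXPB3 had bottom values of 2.61, 1.21 and 1.06 before pollination, 3.93, 8.42 and 11.1 at 1 DAP and 7.97, 18.2 and 4.61 at 2 DAP. By 3 DAP they were 17.7, 18.99 and 0.378, and by 4 DAP 43.3, 41.04 and 6.34. Top values were 0.759, 0.809 and 1.22 before pollination, 3.12 and 5.08 at 1 DAP and 8.36 and 5.37 at 2 DAP. At 3 DAP the top values were 18.8 and 12.9, and at 4 DAP 23.4, 29.2 and 51.7. Each top group lay above the unpollinated one, while in the bottom part replicate 3 of 3 DAP, one of the arrays that stood apart, lay below all unpollinated arrays. OsEXPB6, 2 genes before OsEXPB3, ranged from 0.284 to 8.33 after pollination, against 0.281 to 0.746 before in the bottom part and from 0.722 to 6.49991 after pollination, against 0.177 to 0.382 before in the top part. OsEXPB7 ranged from 0.273 to 10.98 after pollination, against 0.521 to 0.753 before in the bottom part, with the same array lowest. OsEXPA6 ranged from 1.402 to 7.01 after pollination, against 0.893 to 1.09 before in the bottom part and from 2.595 to 6.05 after pollination, against 1.05 to 1.51 before in the top part, with no overlap in either. Between 1 and 4 DAP the top log2 differences of OsEXPB3 and OsEXPB6 were 3.00 ± 1.07, adjusted p = 0.0686 and 2.18 ± 0.79, adjusted p = 0.0722 (limma), which did not pass the threshold. Related expansins may share signal on the array, which was not analysed here.

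Other wall and membrane members were OsCslA1 (LOC4328585), a mannan synthase-like glycosyltransferase, OsCAD2 (LOC4328552) and OsCAD6 (LOC4335223), cinnamyl alcohol dehydrogenases of lignin precursor synthesis, OsUGE-3 (LOC4347638), a UDP-glucose epimerase, OsCASPL2C1 (LOC4341716), a CASP-like membrane protein, and OsPIP2;7 (LOC4347729), a plasma membrane aquaporin. OsCslA1 ranged from 2.69 to 6.62 after pollination, against 1.16 to 1.43 before in the bottom part and from 4.13 to 11.0015 after pollination, against 0.892 to 1.86 before in the top part. For OsCAD6 the range was 0.367 to 1.19 after pollination, against 0.195 to 0.276 before in the bottom part and 1.15 to 2.01 after pollination, against 0.157 to 0.355 before in the top part. Neither overlapped. OsUGE-3 overlapped in the bottom part (1.52 to 18.3 after pollination, against 0.453 to 2.51 before) and not in the top part (2.31 to 6.81 after pollination, against 0.163 to 0.5305 before). OsCAD2 stood at 2.89, 2.89 and 2.82 in the bottom and 0.667, 0.5404 and 1.42 in the top part before pollination, and at 9.63, 8.38 and 8.06 and 6.67, 7.07 and 9.05 at 4 DAP. The parts were far apart before pollination and overlapped at 4 DAP. Before pollination the top minus bottom difference of OsCAD2 was -1.67 ± 0.26, adjusted p = 0.000113 (limma), kept under every alternative run, and at 4 DAP it was -0.20 ± 0.26, adjusted p = 0.726. OsCASPL2C1 rose from 1.26, 1.57 and 1.62 at 1 DAP to 9.19, 6.86 and 2.06 at 4 DAP in the bottom part, by a log2 difference of 1.70 ± 0.51, adjusted p = 0.0372 (limma). That call was lost without any 1 of the bottom 1 DAP replicates or bottom 4 DAP replicates 1 or 2 (adjusted p up to 0.193). OsPIP2;7 was lower in the top part before pollination by a log2 difference of -1.21 ± 0.33, adjusted p = 0.0162 (limma), lost in 4 alternatives, without bottom unpollinated replicate 1 or 3 or top unpollinated replicate 3 among them.

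OsMT1a (LOC4351213), a metallothionein that binds metal ions, had bottom values of 2.16, 0.617 and 1.03 before pollination, 5.44, 6.36 and 7.66 at 1 DAP and 5.601, 3.904 and 5.79 at 2 DAP. Then came 4.603, 5.31 and 9.03 at 3 DAP and 3.55, 6.46 and 7.05 at 4 DAP. The top part gave 0.445, 0.105 and 0.216 before pollination, 1.63 and 2.78 at 1 DAP and 2.35 and 2.64 at 2 DAP. Values of 3.299 and 2.69 followed at 3 DAP, and of 3.62, 2.48 and 2.42 at 4 DAP. Every pollinated array was above the unpollinated ones of its part. Each bottom array of OsMT1a lay above the top arrays of the same stage up to 3 DAP. At 4 DAP the parts overlapped (3.55 in the bottom and 3.62 in the top part). Before pollination the top minus bottom difference was -1.81 ± 0.37, adjusted p = 0.00217 (limma), lost with only the arrays compared (adjusted p 0.0558). Its difference at 1 DAP, -1.54 ± 0.42, adjusted p = 0.0396, was lost in 9 alternatives (adjusted p up to 0.548), among them without any 1 array of either group. ROMT-17 (LOC4345935), an O-methyltransferase by name, rose from 4.95, 4.697 and 3.88 at 1 DAP to 10.2, 9.17 and 7.13 at 4 DAP in the bottom part, by a log2 difference of 0.94 ± 0.29, adjusted p = 0.0403 (limma). That call was lost in 6 alternatives (adjusted p up to 0.156), among them without any 1 of the bottom 1 DAP replicates or bottom 4 DAP replicate 1 or 2. OsABCG36 (LOC4327728), an ABC transporter, rcs3 (LOC4334101), a cysteine synthase, OsPDIL5-1 (LOC4347226), a protein disulfide isomerase-like protein, OsBURP03 (LOC4324159), a BURP domain protein, and CRK6 (LOC4343500), a cysteine-rich receptor-like kinase, completed the named members. OsABCG36 read 1.41 to 18.8 after pollination, against 0.684 to 1.38 before in the bottom part and 1.27 to 4.896 after pollination, against 0.206 to 0.477 before in the top part. For rcs3 the arrays spanned 10.6 to 28.7 after pollination, against 3.45 to 6.005 before in the bottom part and 11.5 to 23.8 after pollination, against 3.25 to 5.84 before in the top part. OsPDIL5-1 spanned 5.41 to 13.3 after pollination, against 1.91 to 4.11 before in the bottom part and 13.5 to 23.2 after pollination, against 2.25 to 5.26 before in the top part. None of these overlapped between stages, and the lowest pollinated top value of OsPDIL5-1 was above its highest bottom one. CRK6 was among the dim members, at 0.888 to 1.996 after pollination, against 0.255 to 0.4097 before in the bottom part and 0.764 to 1.28 after pollination, against 0.277 to 0.348 before in the top part. OsBURP03 ranged from 5.69 to 25.5 after pollination, against 1.23 to 2.22 before in the bottom part and from 16.9 to 28.9 after pollination, against 0.903 to 1.69 before in the top part.

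The only member among 10 listed cyclins and cyclin-dependent kinases was CycB2;2 (LOC4342121), a mitotic B-type cyclin, with 2 member probe sets. The brighter had bottom values of 0.605, 0.347 and 0.178 before pollination, 7.19, 6.09 and 6.11 at 1 DAP and 5.82, 5.77 and 2.58 at 2 DAP. The later bottom arrays read 3.37, 2.13 and 1.28 at 3 DAP and 3.37, 3.11 and 2.46 at 4 DAP. Top values were 1.67, 1.32 and 0.902 before pollination, 10.9 and 8.21 at 1 DAP and 7.898 and 6.29 at 2 DAP. By 3 DAP they were 6.48 and 1.57, and by 4 DAP 5.87, 4.75 and 4.37. Both parts had their highest mean at 1 DAP, and in the top part 1 array of 3 DAP lay below the highest unpollinated one, so that the stages overlapped there. The second probe set fell between 1 and 4 DAP by a log2 difference of -1.08 ± 0.26, adjusted p = 0.00846 in the bottom and -1.02 ± 0.29, adjusted p = 0.0206 in the top part (limma). The first of these calls was lost without bottom 1 DAP replicate 3 (adjusted p 0.0503), and the second without top 1 DAP replicate 1 or top 4 DAP replicate 3 (adjusted p up to 0.298). The brighter one had differences of -1.09 ± 0.42, adjusted p = 0.124 and -0.91 ± 0.47, adjusted p = 0.234 and was not called. Of the 9 listed genes that were no members, 6 were called higher than unpollinated at 1 DAP in the bottom part and 6 in the top part (limma, 7.8% and 9.83% of all tested probe sets), with 0 and 1 lower (5.6% and 7.44%; 1 in the bottom part at an unadjusted p under 0.05). At 4 DAP 5 and 2 were higher.

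The brightest members by the mean over all 21 pollinated arrays, of which 12 were bottom and 9 top, were LOC4334518, LOC4343713 and PBZ1 (82.7, 61.6 and 59.5). LOC4334518, which has no informative name, had bottom values of 4.86, 5.13 and 3.396 before pollination, 45.1, 32.4 and 25.3 at 1 DAP and 76.6, 83.1 and 80.3 at 2 DAP. At 3 DAP the bottom values were 92.8, 78.4 and 88.4, and at 4 DAP 112, 84.3 and 123. It was higher at 4 than at 1 DAP in the bottom part by 1.65 ± 0.20, adjusted p = 1.30e-05 and in the top part by 1.00 ± 0.23, adjusted p = 0.00434 (limma, log2), the second lost without top 1 DAP replicate 1 and after quantile normalisation (adjusted p up to 0.0772). LOC9271916, 2 genes from it in the gene order, also rose from 1 to 4 DAP, by 1.83 ± 0.28, adjusted p = 0.000129 in the bottom and 2.37 ± 0.31, adjusted p = 1.32e-05 in the top part. In all, 17 of the 155 member genes lay within 10 genes of another member, in 8 groups. LOC4351146 and LOC4351147, next to each other, both fell from 1 to 4 DAP in the top part. For LOC4351146 the top values were 36.9 and 30.6 at 1 DAP and 6.69, 1.51 and 2.59 at 4 DAP, a log2 difference of -3.44 ± 0.75, adjusted p = 0.00296 (limma). For LOC4351147 the first member probe set gave -3.18 ± 0.85, adjusted p = 0.0133 (limma). That call was lost in 3 alternatives (adjusted p up to 0.15), without top 1 DAP replicate 1 or 2 or top 4 DAP replicate 2. A further member probe set of this gene gave -3.46 ± 0.80, adjusted p = 0.00450 (limma), lost without top 1 DAP replicate 1. Which of such neighbours share a sequence was not analysed here.

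Between 1 and 4 DAP, 30 members were called higher and 11 lower in the bottom part (limma, adjusted p under 0.05), 20.5% of the members beside 9% of all tested probe sets. In the top part 28 were higher and 20 lower, 24% beside 13.9%. This contrast and those between the parts are not among the 8 differences of the rule. They are made of group means that the rule used, so the shares of members called are not independent of the choice. The median member changed by 0.17 and 0.02 on the log2 scale, and the median of all tested probe sets by 0.05 and -0.01. By direction, 4.92% of all tested probe sets were higher and 4.08% lower in the bottom part, and 7.48% and 6.47% in the top part. In both parts 16 members (8%) were higher at 4 DAP, beside 3.59% of all tested probe sets, and 9 (4.5%) were lower, beside 2.44%. None was called in opposite directions (0.0375%), and 136 (68%) were called in neither part (83.1%). The top count was 21 without top 1 DAP replicate 1, and the bottom count was 71 without the 3 arrays that stood apart.

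**Figure D4:**
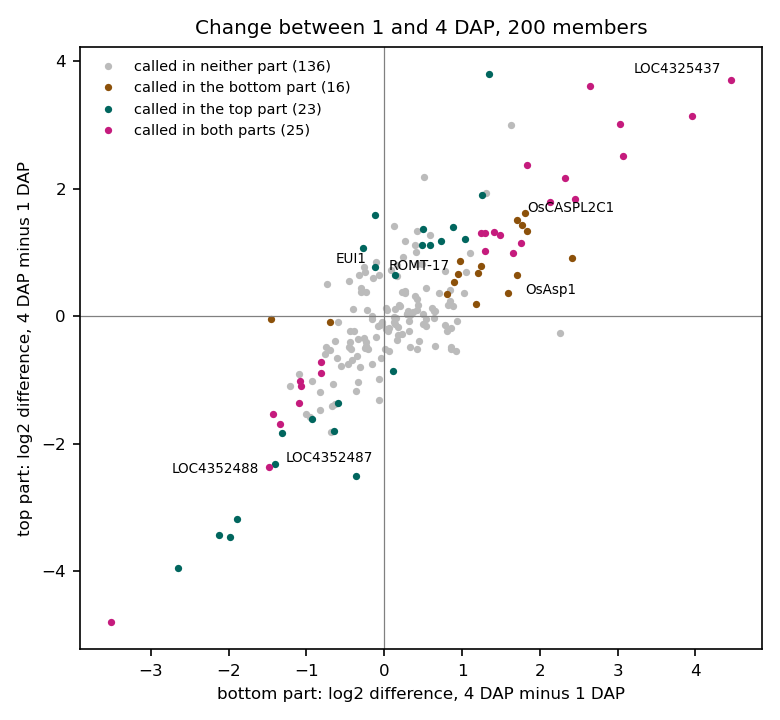
Log2 difference of 4 DAP minus 1 DAP for each of the 200 members in the bottom part (x axis) and the top part (y axis), coloured by the part in which limma called it. Members called in both parts (25) lie along the diagonal, with LOC4325437 at the upper end.

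The members that went on rising were led by genes without an informative name. LOC4325437 had bottom values of 0.204, 0.268 and 0.227 before pollination, 1.84, 1.24 and 0.6796 at 1 DAP and 7.17, 7.802 and 8.83 at 2 DAP. Then came 24.7, 18.3 and 7.82 at 3 DAP and 32.2, 26.7 and 26.6 at 4 DAP. On the top arrays it stood at 0.357, 0.327 and 0.262 before pollination, 1.29 and 1.55 at 1 DAP and 11.03 and 7.77 at 2 DAP. Values of 32.2 and 18.1 followed at 3 DAP, and of 22.5, 22.4 and 15.97 at 4 DAP. From 1 to 4 DAP it was higher by 4.46 ± 0.33, adjusted p = 2.53e-08 in the bottom and 3.71 ± 0.37, adjusted p = 5.18e-07 in the top part (limma, log2), the largest bottom difference among members. LOC9270922 rose by 3.95 ± 0.35, adjusted p = 2.45e-07 and 3.14 ± 0.40, adjusted p = 8.62e-06, and LOC4339804 by 3.03 ± 0.28, adjusted p = 3.69e-07 and 3.01 ± 0.31, adjusted p = 8.45e-07. LOC4346292 rose in the top part by 3.79 ± 0.61, adjusted p = 0.000154, from 0.571 and 0.8997 to 10.4, 12.3 and 12.2. The calls between 1 and 4 DAP given here for these 4 genes were kept under every alternative run. On the falling side, 1 member probe set without a gene went from 12.6, 9.84 and 16.7 to 1.14, 0.908 and 0.977 in the bottom part and from 30.9 and 19.99 to 0.859, 0.395 and 1.28 in the top part, differences of -3.50 ± 0.49, adjusted p = 6.09e-05 and -4.79 ± 0.55, adjusted p = 2.92e-06 (limma). It and the genes without an informative name were chosen after their values were seen.

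The change from 1 to 4 DAP was not shown to differ between the parts: the test of that difference called 0 members (limma, 0.624% of all tested probe sets), with 21 at an unadjusted p under 0.05, and 1 without top 4 DAP replicate 1 or with only the arrays compared. Against the bottom part, the top part had 14 members higher and 18 lower before pollination (15% of all tested probe sets either way, 6.84% higher and 8.13% lower). At 1 DAP it had 11 higher and 7 lower (4.06%; 1.32% and 2.74%). Only 3 were called at 2 DAP, all lower (1.49%). The count was 16 higher and 5 lower at 3 DAP (5.36%), then 1 higher and 4 lower at 4 DAP (2.56%). The share of members was 16% before pollination, near that of all probe sets, and 9%, 1.5%, 10.5% and 2.5% at 1, 2, 3 and 4 DAP. After pollination 25 members (12.5%) were called higher in the top part on at least 1 day, beside 5.48% of all tested probe sets, and 13 (6.5%) in the bottom part, beside 4.07%. None was called on all 4 days or in opposite directions, and 162 (81%) were called on no day (90.5%). LOC4332568 had the largest difference at 2 DAP, with 21.99, 18.4 and 14.9 in the bottom and 1.45 and 1.29 in the top part (-3.61 ± 0.35, adjusted p = 2.84e-06, limma, log2), beside 12.6, 13.8 and 9.897 and 9.19 and 8.25 at 3 DAP. LOC4338457 was lower in the top part at 1 DAP by a log2 difference of -1.57 ± 0.26, adjusted p = 0.000651, and both calls were kept under every alternative run.

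These counts rest on single arrays. Before pollination the count was 14 without bottom replicate 3 and 19 and 15 without top replicates 1 and 2. At 1 DAP it was 6 and 9 without bottom replicates 2 and 3, and 2 and 5 without top replicates 1 and 2. At 2 DAP it was 1 without either top replicate. At 3 DAP it was 46, 10 and 3 without bottom replicates 1, 2 and 3, and 0 and 13 without top replicates 1 and 2, while 30 were called with the 18S rRNA signal as a covariate. At 4 DAP it was 2 without bottom replicate 1 and 3 without top replicate 2 or 3.

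**Figure D5:**
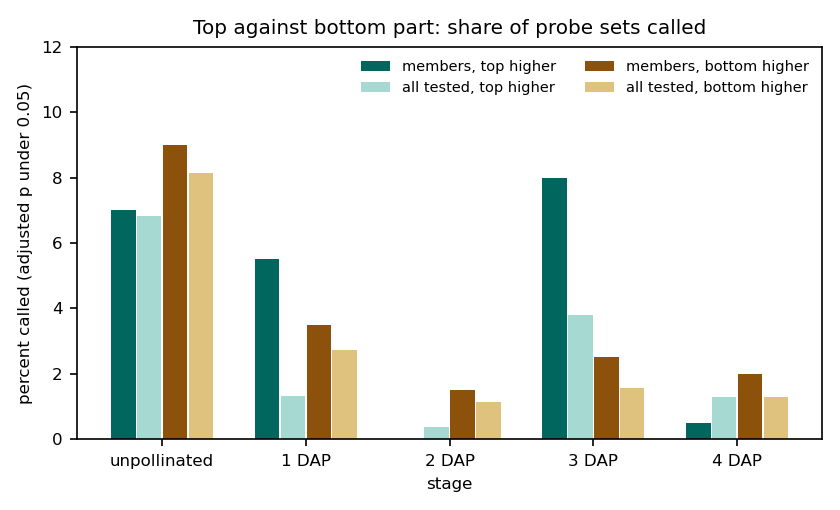
Percent of the 200 members and of all tested probe sets called higher in the top part or in the bottom part (limma, adjusted p under 0.05) at each stage (x axis), as bars from 0. At 3 DAP 8% of members are higher in the top part beside 3.79% of all probe sets, a count that moves between 0 and 46 for both directions together when 1 array is left out.

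The genes of the other lists were counted in the same fit. All 12 listed genes of diterpenoid phytoalexin synthesis, which makes antimicrobial compounds, were called higher than unpollinated at 1 DAP in both parts (limma), yet none was a member: at 2, 3 and 4 DAP 9, 7 and 9 were higher in the bottom part (limma, 7.8%, 8.34% and 12% of all tested probe sets). In the top part 0 were called on each of these days (10.2%, 14.1% and 18.1%), with 4, 0 and 1 higher at an unadjusted p under 0.05. CYP71Z7 (LOC4329726), a P450 of that pathway, had log2 differences of 6.05, 4.08, 2.61 and 3.44 in the bottom part and 5.28, 2.34, 0.11 and 0.52 in the top part. From 1 to 4 DAP 11 of the 12 were called lower in each part. At 1 DAP 4 of 10 listed chitinases were higher and 2 lower in the bottom part, and 3 and 1 in the top part. Of 6 WRKY factors 3 were higher in the bottom and 3 in the top part at 1 DAP, and 2 and 2 at 2 DAP (lower calls took 6.44% and 8.26% of all tested probe sets that day).

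Among genes that were no members, of 3 other listed proteases and cystatins 1 was higher and 1 lower than unpollinated at 4 DAP in the bottom part, and 3 and 0 (unadjusted p under 0.05 in 0) in the top part (limma). Of 17 expansins and related genes 2 and 5 were higher in the bottom and top part, with 4 and 2 lower at 4 DAP. OsEXPA1 (LOC4335222), for example, had a log2 difference of -4.36 in the bottom part at 1 DAP. Of 52 auxin genes 2 were higher and 7 lower at 4 DAP in the bottom part, and 13 and 11 in the top part. Of 9 gibberellin genes 2 were higher and 3 lower at 4 DAP in the bottom part, and 2 and 2 in the top part. The share of all tested probe sets called higher at 4 DAP was 12% in the bottom and 18.1% in the top part, and lower 8.34% and 16.5%.

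Against the same shares, the other lists at 4 DAP gave these counts of genes that were no members, higher and lower (limma). Of 6 NAC factors, 1 and 1 were called in the bottom part and 1 and 0 (unadjusted p under 0.05 in 0) in the top part. Of 22 MADS factors, 3 and 10 were called in the bottom part and 3 and 7 in the top part. Of 19 heat stress factors, 0 (unadjusted p under 0.05 in 0) and 3 were called in the bottom part and 1 and 3 in the top part. Of 21 cellulose synthases and related enzymes, 3 and 1 were called in the bottom part and 5 and 2 in the top part. Of 18 aquaporins, 3 and 4 were called in the bottom part and 7 and 2 in the top part. Of 27 DNA replication genes the counts were 2 and 0 (unadjusted p under 0.05 in 2) and 0 (unadjusted p under 0.05 in 1) and 3, with no member. Of 6 core histones the counts were 3 and 0 (unadjusted p under 0.05 in 1) and 2 and 0 (unadjusted p under 0.05 in 0), with no member. Of 24 cytosolic ribosomal proteins the counts were 19 and 0 (unadjusted p under 0.05 in 0) and 20 and 0 (unadjusted p under 0.05 in 0), with no member. Of 24 genes of sugar transport and sucrose cleavage the counts were 6 and 5 and 12 and 3, with no member.

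A further 15 lists held few or no members, and their other genes were counted at 4 DAP in the same way (limma, higher and lower than unpollinated). Of 8 MYB factors, the calls were 0 (unadjusted p under 0.05 in 0) and 3 in the bottom part and 1 and 1 in the top part. Among 13 AP2 and ERF factors, the calls were 0 (unadjusted p under 0.05 in 1) and 1 in the bottom part and 1 and 3 in the top part. Of 21 bHLH and bZIP factors, the calls were 1 and 1 in the bottom part and 5 and 4 in the top part. Among 35 homeobox factors, the calls were 5 and 7 in the bottom part and 4 and 8 in the top part. Of 17 starch synthesis genes, the calls were 9 and 3 in the bottom part and 10 and 3 in the top part. Among 26 cytokinin genes, the calls were 3 and 4 in the bottom part and 4 and 7 in the top part. Of 10 ethylene genes, the calls were 1 and 2 in the bottom part and 2 and 1 in the top part. Among 35 jasmonate and salicylate genes, the calls were 2 and 9 in the bottom part and 5 and 3 in the top part. Of 5 lipid transfer proteins, the calls were 1 and 0 (unadjusted p under 0.05 in 0) in the bottom part and 4 and 0 (unadjusted p under 0.05 in 0) in the top part. Among 56 mineral and nitrogen transporters, the calls were 9 and 14 in the bottom part and 6 and 13 in the top part. Of 2 peroxidases, the calls were 1 and 0 (unadjusted p under 0.05 in 0) in the bottom part and 1 and 0 (unadjusted p under 0.05 in 0) in the top part. Among 6 glutathione and glycosyl transferases, the calls were 1 and 2 in the bottom part and 2 and 0 (unadjusted p under 0.05 in 0) in the top part. Of 18 cytochromes P450, the calls were 7 and 3 in the bottom part and 3 and 1 in the top part. Among 7 photosynthesis genes, the calls were 5 and 1 in the bottom part and 5 and 1 in the top part. Of 11 seed storage and allergen genes, the calls were 3 and 0 (unadjusted p under 0.05 in 0) in the bottom part and 5 and 0 (unadjusted p under 0.05 in 0) in the top part. Member genes matched by these lists were EUI1, as a P450, and AP25, which the AP2 pattern caught by its letters although it is an aspartic protease. The PR-10 list matched PBZ1 alone.

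Symbol patterns of 9 lists were narrowed after their matches were seen, and none gained or lost a member by it. As first written, the list that became the chitinases, with other pathogenesis-related proteins, held 21 genes with 1 and 5 called in the bottom part and 0 (unadjusted p under 0.05 in 2) and 4 in the top part at 4 DAP (limma, higher and lower). The list that became the heat stress factors, with heat shock proteins, held 41 genes with 1 and 4 called in the bottom part and 2 and 5 in the top part. The core histones were 9 genes with 3 and 2 called in the bottom part and 2 and 1 in the top part, and the aquaporins 22 genes with 3 and 4 called in the bottom part and 8 and 3 in the top part. The other 5 lists differed by at most 2 genes.

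Other probe sets of the member genes were not always alike. There were 15 further tested probe sets for 10 member genes, and 6 of them lay above the unpollinated groups in all 8 differences, with scores from -1.02 to 0.78 (median -0.13). For LOC4333690, 4 other probe sets had negative scores, and 3 of ROMT-17 scored from -0.25 to 0.01, so for these genes the lasting rise rests on 1 probe set. At the edge of the rule, the last 3 members, of LOC4347723, LOC4342564 and LOC4339356, scored 1.12, 1.12 and 1.12, and the next 3 probe sets 1.12, 1.12 and 1.11. A score above 1 was reached by 264 probe sets and a score above 3 by 5.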

How the data were processed

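Total RNA of each sample was labelled with biotin and hybridised to an Affymetrix rice array. The deposited values are an intensity per probe set on a linear scale, which from the values themselves the authors divided by the 75th percentile of each array. The software GCOS 1.3 is named, per the submitters' processing notes. How probes were summarised is not stated in the labels, no detection call was used, and the number of arrays limits the precision.

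Values were analysed as log2(value + 0.13), the pseudocount being the 20th percentile of rice values, and folds are on that scale, which understates changes of low genes. One fit of 10 group means over all 27 arrays in limma 3.58.1 (R 4.3.3; lmFit, eBayes with trend; 17 residual degrees of freedom) was adjusted by Benjamini-Hochberg over 29331 probe sets, two-sided, called at adjusted p under 0.05. The code was tested on simulated data. Python 3.11.15, numpy 2.4.6, pandas 2.3.3 and matplotlib 3.10.9 did the rest.

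Probe sets were named from the platform annotation and symbols from a RefSeq gene table (ASM3414082v1). Named were the highest-scoring members with an informative name, members on a list, the 3 largest called differences of each contrast and direction, the brightest, the members at the edge of the rule and neighbours. Members and lists were chosen with earlier results of these data known, and the 38 lists were matched by symbol patterns, of which 9 were narrowed after their matches were seen. Protein and promoter sequences were not analysed here.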

Additional observations from a re-analysis of the deposited data

How the results depend on the processing

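The rule kept 165 of the 200 members with a pseudocount of 0.5, 184 with 0.03, 200 with no filter, 185 after quantile normalisation, 176 with group medians, 177 without the 3 bottom arrays that stood apart and 174 to 198 without any 1 array. Without those 3 arrays the counts of members called were 71 for 4 minus 1 DAP in the bottom part, 51, 46, 5, 6 and 9 for top minus bottom before pollination and at 1, 2, 3 and 4 DAP. With only the arrays compared they were 82 for 4 minus 1 DAP in the top part, 36, 0 and 1 for top minus bottom at 1, 3 and 4 DAP, and 1 for the difference between parts. A pseudocount of 0.5 gave 19 for top minus bottom before pollination, and at 3 DAP no filter gave 8 and quantile normalisation 9. Leaving out 1 array gave 31 to 46 and 21 to 40 for 4 minus 1 DAP in the bottom and top part, 14 to 30, 2 to 12, 1 to 3, 0 to 46 and 2 to 5 for top minus bottom from the unpollinated stage to 4 DAP, and 0 to 1 for the difference between parts. Between the groups of each contrast, deviations of same-numbered replicates correlated from -0.63 to 0.31. Each contrast had only 2 or 3 shared numbers, and other pairs of groups were not compared. Whether replicate numbers pair the samples was therefore not settled. With the replicate number as a block the counts were 48 and 68 for 4 minus 1 DAP in the bottom and top part and 12 for top minus bottom at 4 DAP. The cause of these moves was not tested. Of 68 pairs of a named or leading gene and a contrast, 27 kept their call under every alternative run, 41 lost it under at least 1 and 0 reversed. The number of arrays, 2 in 3 of the top groups, limits all of these.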
